A study of Mus musculus with 12 samples.

Results

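The genes of fatty acid oxidation and ketone body handling were followed along the mouse small intestine at 2 ages, after a high-fat or a low-fat diet. The set was a list of 38 genes, chosen with earlier results of these data known. Counts of the set beside shares of all genes are therefore descriptive. A listed gene was kept when the array held a probe set that named it alone and that exceeded an intensity of 50 on at least 1 of the 12 arrays, and the brightest such probe set stood for it. In all, 35 of the 38 genes were kept, among 11925 genes tested in the series. Acsl1 and Ucp2 had no probe set named in the annotation used here, and Acsl3 shared its probe set with another gene, so these 3 were not analysed here.

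The mice were male C57BL/6J animals. Old mice were 21 months of age and young mice were 4 months of age at the end of the study. Each age group received a purified palm oil based diet for 2 weeks that supplied either 45% of its energy as fat (high-fat) or 10% (low-fat), after all mice had been run in on the low-fat diet. The mice were killed after feeding, and RNA came from scrapings of the proximal, middle and distal small intestine. RNA was pooled before hybridisation, from 8 old or 6 young mice per diet, and each pool and segment was measured on 1 array, which gave 12 arrays from 4 pools. The pools therefore carry no measure of the spread between animals and each pool supplied all 3 of its segments from 1 set of mice. In scrapings, fewer cells of a type and less RNA per cell cannot be told apart.

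Fatty acids enter oxidation after they are joined to coenzyme A by acyl-CoA synthetases. Long chains cross the mitochondrial membranes as carnitine esters, through carnitine palmitoyltransferase 1 (Cpt1a), the carnitine-acylcarnitine carrier (Slc25a20) and carnitine palmitoyltransferase 2 (Cpt2). Inside, a cycle of dehydrogenation, hydration, a further dehydrogenation and thiolysis shortens the chain and releases acetyl-CoA, and electrons leave through the electron transfer flavoprotein. Peroxisomes run a parallel cycle with their own enzymes on very long and branched chains. The acetyl-CoA can be turned into ketone bodies, and the nuclear receptor PPARα (Ppara) is known to switch on many of these genes when fatty acids are plentiful. Absorptive enterocytes, which take up dietary fat, are the most abundant epithelial cells of the villi.

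The tissue labels were compared with marker genes first. The mean log2 level of 12 enterocyte markers lay between 11.99 and 12.22 on all 12 arrays. Markers of the proximal intestine averaged 10.13 to 10.73 in the proximal arrays, against 7.89 to 8.69 in the other 8 arrays, and markers of the distal intestine averaged 11.46 to 11.57 in the distal arrays, against 8.23 to 8.69 in the proximal ones. Pancreatic acinar genes averaged 10.14 to 11.54 in the proximal arrays and 5.23 to 6.13 elsewhere.

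The diet comparison asked which steps of fatty acid oxidation differed after the high-fat diet. A call is a gene whose limma p-value, adjusted over all 11925 genes by Benjamini-Hochberg, was under 0.05. In the middle segment 9 of the 35 genes were higher on the high-fat diet and none was lower, where 1.31% of all genes tested were called higher. Of all 11925 genes, 148 were called lower there. In the proximal segment 1 of the 35 was higher, against 0.235% of all genes, and in the distal segment 2 were higher, against 0.361% of all genes. Medians of the log2 difference over the 35 genes were 0.17, 0.23 and 0.09 from proximal to distal. With the 3 segments of each pool averaged before the test, 13 of the 35 genes were higher and none was lower, against 2.53% of all genes called higher. Of all 11925 genes, 376 were called lower in that mean.

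Acadl, the long-chain acyl-CoA dehydrogenase of mitochondria, had the largest difference of the 35 genes in the middle and proximal segments, while Acaa1b had the largest distally. In the middle segment its intensity was 2026 in old and 1903 in young mice on the high-fat diet, against 785 and 747 on the low-fat diet. High-fat and low-fat arrays did not overlap, and the gap was over 2-fold in each age group, with log2 differences of 1.37 in old and 1.35 in young mice. The fitted log2 difference was 1.36 (standard error 0.08, adjusted p = 0.00041 from limma), or 2.56-fold.

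In the proximal segment Acadl reached 2178 in old and 1955 in young mice on the high-fat diet, against 1382 and 1278 on the low-fat diet (log2 difference 0.63, adjusted p = 0.0226 from limma). In the distal segment the values were 1356 and 1329.6 on the high-fat diet, against 999.6 and 866 on the low-fat diet (log2 difference 0.53, adjusted p = 0.0381 from limma). It was the only 1 of the 35 genes to pass in all 3 segments, and the only 1 over 2-fold in any of the 6 high-fat to low-fat pairs of arrays. Of all genes 1.48% exceeded 2-fold in at least 1 of these 6 pairs, and 0.419% were over 2-fold higher in the middle segment of old and 0.361% in that of young mice. The low-fat level of Acadl was lower in the middle than in the other segments, while its high-fat level there was near that of the proximal segment.

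**Figure D1:**
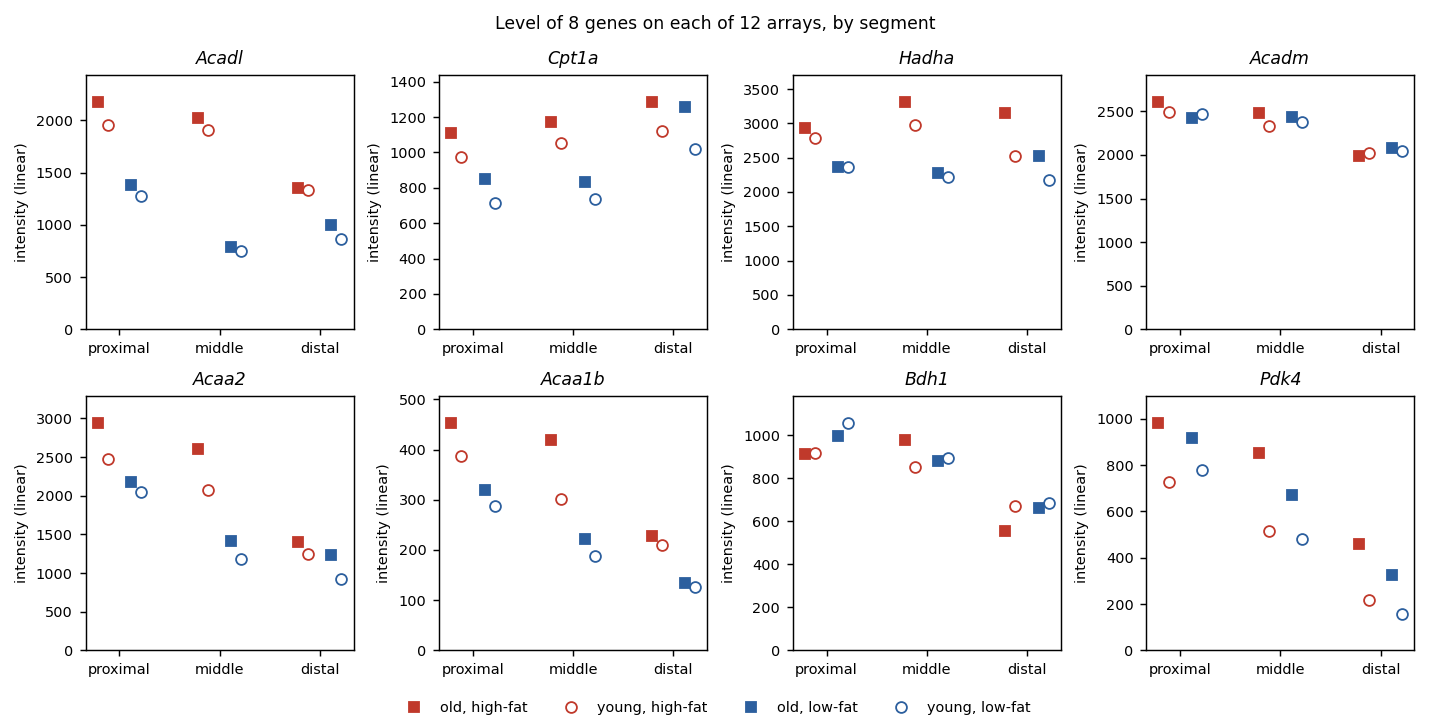
Linear intensity (vertical axis, from 0) of 8 genes on each of the 12 arrays, by segment, with high-fat arrays in red left of low-fat arrays in blue, and old mice as filled squares, young mice as open circles. Acadl stood at 2026 and 1903 on the high-fat diet in the middle segment, against 785 and 747 on the low-fat diet, while Acadm was level between diets.

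The carnitine route had 3 of its 5 genes called in the middle segment. Slc25a20, the carrier across the inner membrane, measured 2535 in old and 2122 in young mice on the high-fat diet, against 1568 and 1503 on the low-fat diet (log2 difference 0.60, standard error 0.09, adjusted p = 0.0213 from limma). Cpt1a, which makes the carnitine esters and is held to be the controlled step of entry, measured 1172 and 1053 on the high-fat diet, against 832 and 737 on the low-fat diet (log2 difference 0.50, adjusted p = 0.0163 from limma). Each of these genes separated the diets without overlap in the middle segment.

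Cpt2, the inner-membrane transferase, measured 845 and 784 in the middle segment of old and young mice on the high-fat diet, against 559 and 594 on the low-fat diet (log2 difference 0.50, adjusted p = 0.0321 from limma). Crat, which moves short acyl groups between carnitine and coenzyme A, had 1718 and 1394 on the high-fat diet, against 1122 and 1164 on the low-fat diet, and its log2 difference of 0.44 missed the threshold there. Crot, the peroxisomal octanoyl transferase, had the lowest difference of the group at 0.17. In the distal segment the 5 log2 differences lay between 0.06 and 0.45, with no call.

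Of the 6 genes listed as acyl-CoA dehydrogenases, Acadl alone was called in a single segment. Acadm, the medium-chain enzyme, measured 2485 in old and 2332 in young mice on the high-fat diet in the middle segment, against 2436 and 2373 on the low-fat diet. Its log2 difference there was 0.00, with a 95% interval of -0.16 to 0.17, and it was 0.06 in the proximal and -0.04 in the distal segment. Acadvl, for very long chains, had 1368 and 1157 on the high-fat diet in the middle segment, against 988 and 941 on the low-fat diet, a log2 difference of 0.38 that missed the threshold in that segment. Acads (short chains), Acad10 and Acad11 had differences of 0.23, 0.05 and 0.10 in the middle segment, with no call.

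Among the later mitochondrial steps, Acaa2, the thiolase that closes the cycle, measured 2604 in old and 2071 in young mice on the high-fat diet in the middle segment, against 1416 and 1178 on the low-fat diet (log2 difference 0.85, standard error 0.09, adjusted p = 0.00492 from limma). Hadha, the alpha subunit of the trifunctional protein that works on long chains, measured 3313 and 2971 on the high-fat diet, against 2270.4 and 2223 on the low-fat diet (log2 difference 0.48, adjusted p = 0.0237 from limma). The array values of both genes were higher on the high-fat diet in each of the 6 pairs.

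Hadhb, the beta subunit of the same complex, had 3373 and 2929.8 on the high-fat diet in the middle segment, against 2551 and 2386 on the low-fat diet, a log2 difference of 0.35 with no call. Hadh and Echs1, the dehydrogenase and hydratase for shorter chains, and Eci1 and Decr1, which prepare unsaturated chains, lay between -0.03 and 0.05 in the middle segment, with no call in any segment. The 7 later genes thus had a median difference of 0.05 in the middle segment, against 0.50 for the 5 carnitine genes. The 3 genes of electron transfer (Etfa, Etfb and Etfdh) lay between 0.18 and 0.32 there, with no call.

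Of the 8 peroxisomal genes, 3 were called in the middle segment. Acaa1b, a peroxisomal thiolase, measured 419.7 in old and 302 in young mice on the high-fat diet in the middle segment, against 223 and 188 on the low-fat diet (log2 difference 0.80, standard error 0.08, adjusted p = 0.00448 from limma). In the distal segment it measured 228 and 210.2 on the high-fat diet, against 134 and 126 on the low-fat diet (log2 difference 0.75, adjusted p = 0.0149 from limma). Both contrasts had no overlap, and the gene was higher on the high-fat diet in all 6 pairs, by 0.43 to 0.91.

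Its neighbour Acaa1a, which encodes the paralogous thiolase on the same chromosome, had 568 and 536 on the high-fat diet in the middle segment, against 486 and 522 on the low-fat diet, with log2 differences of -0.15 to 0.23 over the 6 pairs and no call. Acaa1a lies at chr9:119341028-119350296 and Acaa1b at chr9:119148043-119157093 in GRCm38.p6. Probes of such near-identical genes can take up each other's RNA, so the values of the pair are uncertain.

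Hsd17b4, the D-bifunctional enzyme of the peroxisomal cycle, measured 3258 in old and 3142 in young mice on the high-fat diet in the middle segment, against 2168 and 2200.2 on the low-fat diet (log2 difference 0.55, adjusted p = 0.0114 from limma). Pex11a, a membrane protein of peroxisome division, measured 599 and 527 on the high-fat diet, against 411 and 384 on the low-fat diet (log2 difference 0.50, adjusted p = 0.0217 from limma). Ehhadh, the L-bifunctional enzyme, lay at 1436 and 1131 on the high-fat diet, against 1287 and 1136 on the low-fat diet. The diets overlapped for Ehhadh, whose log2 difference was 0.08 in the middle segment. Abcd3, the half-transporter that admits acyl-CoA to the peroxisome, had a difference of 0.31 in the middle segment, and Eci2 and Decr2, which handle unsaturated chains, had 0.21 and 0.08, none of them called.

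The medians of the steps could be set side by side for the middle segment, where most calls lay. They were 0.50 for the 5 carnitine genes, 0.17 for the 6 acyl-CoA dehydrogenases, 0.05 for the 7 later mitochondrial genes, 0.23 for electron transfer and 0.26 for the 8 peroxisomal genes, and 0.04 for the single ketone body gene. In the proximal segment the same medians were 0.26, 0.14, 0.05, 0.16, 0.21 and -0.16, and distally 0.09, 0.10, 0.01, 0.09, 0.18 and -0.15. The differences between steps were not tested.

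The ketone body step rested on Bdh1, which interconverts acetoacetate and 3-hydroxybutyrate in mitochondria. The committed steps of ketone body synthesis were not analysed here. Bdh1 measured 975 in old and 852 in young mice on the high-fat diet in the middle segment, against 878 and 894 on the low-fat diet. The proximal values were 914 and 919 on the high-fat diet, against 996 and 1057 on the low-fat diet, and the distal values were 553 and 670.4 on the high-fat diet, against 663 and 687 on the low-fat diet. The diets overlapped in the middle segment, and the log2 differences of -0.16, 0.04 and -0.15 from proximal to distal carried no call.

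Of 5 other ketone body genes that were measured from a list of 8, none was called in a single segment. In the mean of segments 1 was higher and 1 lower, where 302 and 376 of all 11925 genes were. Bdh2, a cytosolic dehydrogenase related to short-chain dehydrogenases, rose by 0.28, and Oxct1, the transferase that activates ketone bodies for use, fell by 0.29 (adjusted p = 0.0266 and 0.0245 from limma). The median of the 5 other ketone body genes was -0.01.

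The genes of control had no call with diet in any segment. Ppara measured 366 in old and 340.5 in young mice on the high-fat diet in the middle segment, against 406 and 399.6 on the low-fat diet (log2 difference -0.19, adjusted p = 0.231 from limma). Pdk4, the kinase that inhibits pyruvate dehydrogenase and so spares glucose, had log2 differences of 0.00, 0.22 and 0.49 from proximal to distal, the last with adjusted p = 0.0761 from limma. Angptl4, a secreted inhibitor of lipoprotein lipase, had -0.35, -0.05 and 0.09 in the same order. The 3 genes of control had a median of -0.05 in the middle segment.

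**Figure D2:**
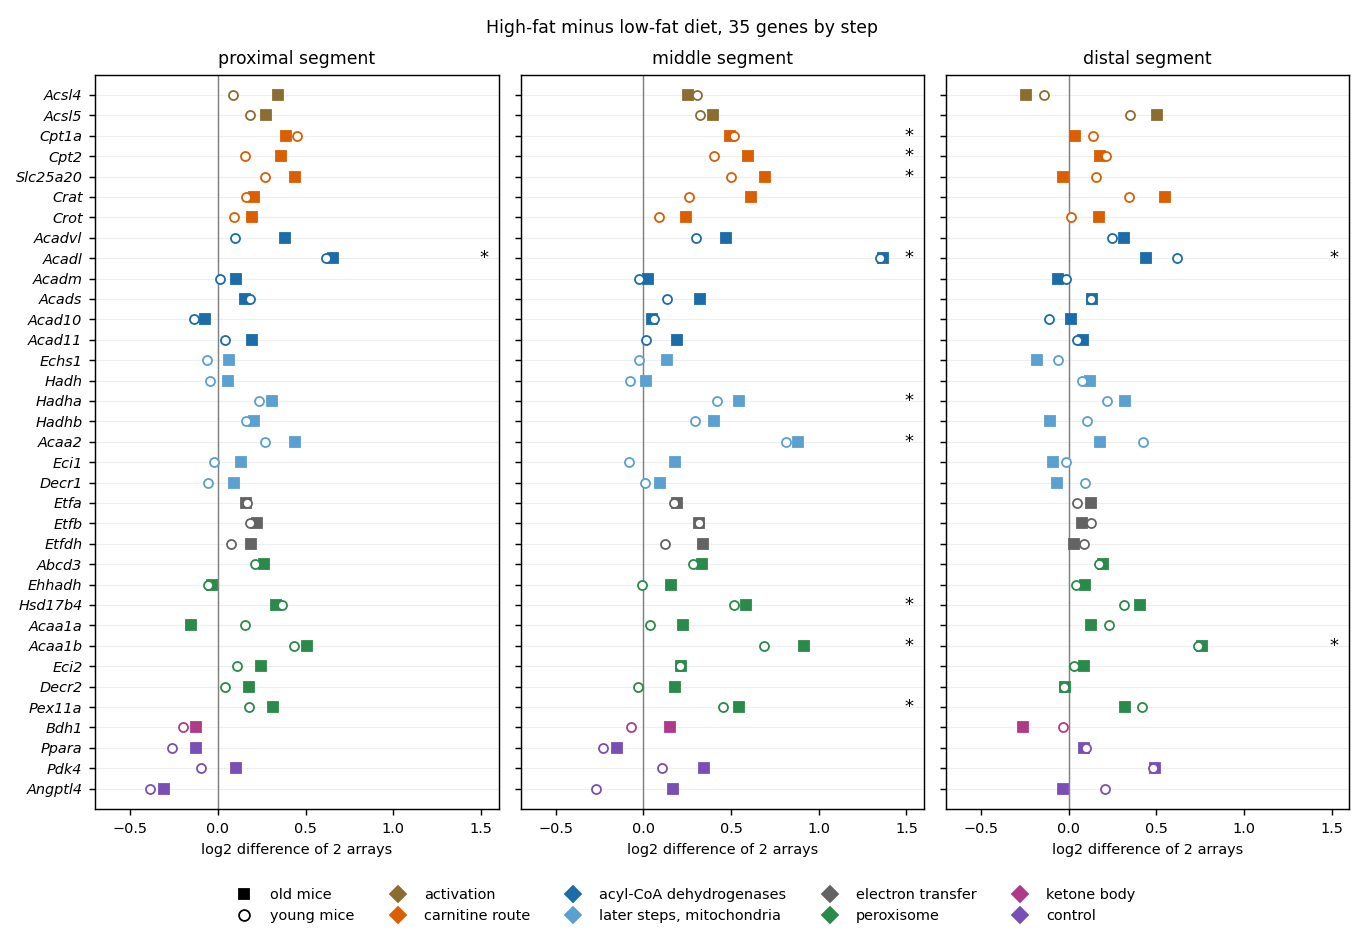
High-fat minus low-fat log2 difference of 2 arrays (horizontal axis) for each of the 35 genes, coloured by step, in the proximal, middle and distal segments, with old mice as filled squares and young mice as open circles. An asterisk marks an adjusted p under 0.05 in limma, which 1, 9 and 2 genes reached from proximal to distal.

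With the 3 segments of a pool averaged, the 13 higher genes held all 9 genes of the middle segment together with Crat, Acsl5, Acadvl and Abcd3. Acadl led with a log2 difference of 0.84 (standard error 0.05, adjusted p = 0.00047 from limma), before Acaa1b with 0.67, Acaa2 with 0.50 and Hsd17b4 with 0.42. Acsl5, the acyl-CoA synthetase of the pair measured, had 0.34, with 8095 in old and 8039 in young mice on the high-fat diet in the middle segment, against 6148 and 6425 on the low-fat diet. The lowest of the 13 was Abcd3 at 0.24.

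The sign of the difference was even across pairs of arrays for many genes. In all, 19 of the 35 genes were higher on the high-fat diet in 6 of 6 pairs, a pattern held by 5.62% of all genes. None was lower in all 6, against 8.55% of all genes. These 19 were Acsl5, 4 of the 5 carnitine genes, the 3 genes of electron transfer, 4 of the 6 acyl-CoA dehydrogenases, 5 of the 8 peroxisomal genes and 2 of the 7 later mitochondrial genes. The pairs of 1 age share their mice across segments and are not independent.

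Other genes of the same pathways were counted from lists. Of 14 further peroxisomal genes, 3 were called higher in the middle segment, 1 in the proximal and 1 in the distal, and none was lower. Acox2, an acyl-CoA oxidase for branched chains and bile acid intermediates, measured 288 in old and 239 in young mice on the high-fat diet in the middle segment, against 89.1 and 95.3 on the low-fat diet (log2 difference 1.51, adjusted p = 0.0008 from limma). Slc27a2, a very long chain acyl-CoA synthetase, was called in 2 segments, with 0.83 (middle) and 0.88 (distal; adjusted p = 0.00492 and 0.0126 from limma). Amacr, the racemase of branched acyl-CoA, had 0.53 in the middle, a call that held in 6 of 20 alternatives.

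Of 16 further genes listed as mitochondrial none was called in a single segment, with 4, 3 and 4 at an unadjusted p under 0.05 from proximal to distal, where 10.8%, 18.0% and 17.5% of all genes were. In the mean of segments 2 of the 16 were called lower on the high-fat diet and none higher, where 376 and 302 of all 11925 genes were. Acsm3, a medium-chain acyl-CoA synthetase of mitochondria, fell by 0.61 and Eci3, an enoyl-CoA isomerase, by 0.29 (adjusted p = 0.00949 and 0.0231 from limma). Eci3 was counted in this list although it is a peroxisomal enzyme. Its call was lost without the intensity filter and without the middle segment. Among 7 genes around malonyl-CoA, which blocks Cpt1a, Acacb, the mitochondrial acetyl-CoA carboxylase, was called in the middle segment with 0.49. Of 10 pyruvate dehydrogenase genes, the kinase Pdk3 was higher by 0.54 and the phosphatase Pdp2 fell by 0.63 there, both called. The list of 12 other nuclear receptors and cofactors had Pparg higher by 0.72 and Ppargc1a, a coactivator of mitochondrial genes, with a fall of 0.63 in the middle segment.

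Of 14 other known PPAR target genes, 3 were called in the middle segment, 1 in the proximal and 1 in the distal. Fabp1, the fatty acid binding protein shared by liver and proximal intestine, measured 5641 in old and 4255 in young mice on the high-fat diet in the distal segment, against 2757 and 1809 on the low-fat diet (log2 difference 1.13, adjusted p = 0.00271 from limma). Its diet difference was larger in the distal than in the proximal segment by 1.03 (adjusted p = 0.0444 from limma), a call that held in 4 of 19 alternatives and was lost in each of the 12 fits without 1 array (adjusted p up to 0.179). Cd36, a fatty acid receptor of the brush border, was called in the proximal segment with 0.60.

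The size of the diet difference was then compared between segments with the same model. None of the 35 genes passed for the middle minus proximal, distal minus middle or distal minus proximal difference, where 0.0252%, 0.0755% and 0.0503% of all genes did, and 4, 8 and 6 of the 35 had an unadjusted p under 0.05 in limma, against 6.73%, 13.3% and 9.49% of all genes. Acadl came nearest, with a diet difference 0.72 larger in the middle than in the proximal segment (95% interval 0.47 to 0.97, adjusted p = 0.136) and a distal minus middle value of -0.83 (interval -1.08 to -0.58, adjusted p = 0.0657). Acaa2 and Slc25a20 had distal minus middle values of -0.55 and -0.53. A call in 1 segment and none in another is thus not shown to be a difference between segments.

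Some markers of other cells moved with the diet. In the middle segment the 10 fibroblast markers were higher on the high-fat diet in 10 of 10 cases in old and 9 of 10 in young mice, with mean log2 levels of 7.08 to 7.21 on the high-fat diet and 6.79 to 6.99 on the low-fat diet, and the 12 enterocyte markers averaged 12.07 to 12.15 on the high-fat diet, against 12.19 to 12.22 on the low-fat diet. In the middle segment of old mice, 7 of 8 distal markers were lower on the high-fat diet, with a median of -0.29. In young mice 4 of the 8 were lower and 4 higher, and the middle array of young mice on the high-fat diet stood apart in 2 of them: Fabp6, the bile acid binding protein of the ileum, measured 2540 on it, against 717 on the low-fat diet, and Slc10a2, the bile acid transporter, 979.6 against 178 on the low-fat diet. The mean log2 level of the distal markers was 9.34 in old and 10.29 in young mice on the high-fat diet in the middle segment, against 9.74 and 9.90 on the low-fat diet. Of 6 proximal markers, 5 in old and 6 in young mice were higher on the high-fat diet there, with medians of 0.26 and 0.11. Their means were 8.55 to 8.69 on the high-fat and 8.34 to 8.55 on the low-fat diet. In old mice 8 of 8 T cell markers were lower and 8 of 8 myeloid markers higher there, against 5 of 8 each in young mice. In the proximal segment 6 of 7 gastric and Brunner gland markers were higher on the high-fat diet, with mean log2 levels of 7.17 to 8.02 on the high-fat diet and 5.97 to 6.43 on the low-fat diet. Acinar genes averaged 10.84 to 11.54 on the high-fat diet and 10.14 to 10.49 on the low-fat diet there. In the distal segment 9 of 10 fibroblast markers were lower on the high-fat diet in each age group, with mean log2 levels of 6.67 to 7.44 on the high-fat and 7.38 to 7.80 on the low-fat diet. There 6 of 6 Paneth cell markers were lower in each age group, with means of 10.23 to 10.92 on the high-fat and 10.92 to 11.12 on the low-fat diet, as were 7 of 7 endothelial markers in old and 6 of 7 in young mice, and 9 of 12 smooth muscle markers in old and 10 of 12 in young mice. In old mice 8 of 8 T cell and 6 of 6 B cell markers were also lower distally on the high-fat diet. Array values have no 0, and the part of these cells and of the position of the scrapings in the diet results was not tested.

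The promoters of a few genes are shown because their genes differed in response: Acadl and Cpt1a, which were called with diet, Acadm, which was level, and Pdk4, which differed with age. Each window runs from 250 bases before to 50 bases after the RefSeq start of transcription in GRCm38.p6, written in the direction of the gene. Capitals mark 3 motifs on either strand: AGGTCA, the hexamer bound by nuclear receptors; GGGCGG, the GC box; and CCAAT. Acadl is at chr1:66863260-66863559 on the minus strand, Cpt1a at chr19:3323051-3323350 on the plus strand, Acadm at chr3:153944594-153944893 on the minus strand and Pdk4 at chr6:5496229-5496528 on the minus strand.
Acadl: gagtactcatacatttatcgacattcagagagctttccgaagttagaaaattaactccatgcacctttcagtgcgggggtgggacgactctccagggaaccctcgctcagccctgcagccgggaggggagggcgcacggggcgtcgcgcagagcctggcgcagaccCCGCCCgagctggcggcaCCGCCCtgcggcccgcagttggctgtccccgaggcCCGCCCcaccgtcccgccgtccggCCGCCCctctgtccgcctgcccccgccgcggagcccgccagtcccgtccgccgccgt
Cpt1a: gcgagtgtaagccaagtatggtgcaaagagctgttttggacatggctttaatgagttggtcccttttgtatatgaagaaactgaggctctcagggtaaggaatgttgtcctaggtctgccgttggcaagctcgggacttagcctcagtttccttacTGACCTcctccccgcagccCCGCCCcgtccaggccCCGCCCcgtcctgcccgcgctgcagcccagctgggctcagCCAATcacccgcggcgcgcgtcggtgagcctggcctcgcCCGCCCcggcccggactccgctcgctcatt
Acadm: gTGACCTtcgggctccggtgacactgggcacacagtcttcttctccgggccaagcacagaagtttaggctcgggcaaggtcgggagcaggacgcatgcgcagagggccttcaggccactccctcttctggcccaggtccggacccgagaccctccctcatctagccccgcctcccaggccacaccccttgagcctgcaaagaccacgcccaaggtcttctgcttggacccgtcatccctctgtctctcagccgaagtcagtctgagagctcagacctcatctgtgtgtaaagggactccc
Pdk4: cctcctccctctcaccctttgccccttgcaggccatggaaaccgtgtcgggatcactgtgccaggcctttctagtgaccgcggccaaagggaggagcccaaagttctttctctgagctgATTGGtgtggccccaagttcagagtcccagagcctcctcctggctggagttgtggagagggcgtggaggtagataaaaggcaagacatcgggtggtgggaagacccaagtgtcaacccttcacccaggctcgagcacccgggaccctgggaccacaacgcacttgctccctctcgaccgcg
The Acadl window held 4 GC boxes and no AGGTCA, and the Cpt1a window held 1 AGGTCA, 3 GC boxes and 1 CCAAT. Acadm, which was level, held 1 AGGTCA, and Pdk4 held 1 CCAAT.

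The table of promoters held 36 windows of 33 of the 38 genes, among them Acsl1, Acsl3 and Ucp2, which were not analysed on the arrays. Counts of the set are of genes, while shares of all are of windows, so they are not strictly alike. AGGTCA lay in the windows of 4 of the 33 genes (Acadm, Acadvl, Cpt1a and Echs1), and in 16.3% of all 32851 windows. The direct repeat of AGGNCA with 1 base between its copies, a loose form of the element bound by PPAR with its partner, lay in none of the windows of the 33 genes and in 0.381% of all windows. GC boxes lay in the windows of 25 of the 33 genes and in 35.7% of all windows, and CCAAT in those of 15 genes and in 37.4% of all windows. A match is only these letters, and a window with none says nothing about more distant sites.

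Hadha and Hadhb lie head to head, with transcription starts 273 bases apart on chromosome 5, so that their windows share 228 bases. This shared stretch, chr5:30155003-30155230 in GRCm38.p6 on the plus strand, is shown because both subunits of 1 protein complex are read from it in opposite directions.
Hadha and Hadhb: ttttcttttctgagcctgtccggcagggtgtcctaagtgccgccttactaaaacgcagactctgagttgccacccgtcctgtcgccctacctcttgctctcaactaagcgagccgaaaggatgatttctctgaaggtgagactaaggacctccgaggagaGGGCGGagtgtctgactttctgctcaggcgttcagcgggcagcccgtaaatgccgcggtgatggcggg
It held 1 GC box, in capitals, and none of the other motifs. The high-fat minus low-fat difference of the pair in old mice was 0.31 for Hadha and 0.20 for Hadhb proximally, 0.55 and 0.40 in the middle segment, and 0.32 and -0.11 distally, for Hadha first and Hadhb second. In young mice it was 0.24 and 0.16 proximally, 0.42 and 0.30 in the middle segment, and 0.22 and 0.10 distally. Hadhb was read by 2 probe sets, of which the brighter was used.

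The age comparison asked whether the same genes differed between old and young mice. In the distal segment 1 of the 35 genes was higher in old mice, against 0.184% of all genes called higher. None was lower there, where 55 of all 11925 genes were. None of the 35 was called in the proximal or middle segment in limma, where 0.109% and 0.0252% of all genes were called in either direction and 3 and 6 of the 35 had an unadjusted p under 0.05, against 8.65% and 8.8% of all genes. Medians of the log2 difference over the 35 genes were 0.08, 0.12 and 0.10 from proximal to distal. In the mean of segments 2 of the 35 genes were higher, against 0.755% of all genes.

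Pdk4 was the gene called in the distal segment. Its intensity there was 459.6 on the high-fat and 327 on the low-fat diet in old mice, against 219 and 156 in young mice. Old and young arrays did not overlap, and both diets gave over 2-fold, with log2 differences of 1.07 on the high-fat and 1.06 on the low-fat diet. The fitted difference was 1.07 (standard error 0.09, adjusted p = 0.00809 from limma). Over 2-fold higher in old mice were 0.0335% of all genes on the high-fat and 0.0839% on the low-fat diet in that segment, and Pdk4 was the only 1 of the 35 genes over 2-fold in any of the 6 age pairs, against 1.06% of all genes in either direction.

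In the middle segment Pdk4 measured 852 on the high-fat and 672 on the low-fat diet in old mice, against 516 and 479 in young mice (log2 difference 0.61, adjusted p = 0.137 from limma). In the proximal segment it measured 982 and 915 in old mice, against 728 and 779.5 in young mice (log2 difference 0.33, adjusted p = 0.272 from limma). Pdk4 was thus higher in old mice in all 6 pairs, and its difference in the mean of segments was 0.67 (standard error 0.06, adjusted p = 0.00484 from limma). Pdk4 lies at chr6:5483351-5496278 in GRCm38.p6.

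Acaa2 was the other gene called in the mean of segments, with a log2 difference of 0.25 (standard error 0.05, adjusted p = 0.0461 from limma). This call held in 3 of 9 alternatives and was lost with any 1 segment left out of the mean (adjusted p up to 0.198). Its values in old mice on the high-fat and low-fat diets were 2943 and 2173 proximally, 2604 and 1416 in the middle segment, and 1398 and 1234 distally, against 2469.5 and 2053, 2071 and 1178, and 1246 and 929 in young mice. The gaps between ages were small beside those between diets in the middle segment. Angptl4 followed with 0.23, which missed the threshold (adjusted p = 0.0714 from limma).

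Of all genes, 4.37% were lower in old mice in 6 of 6 pairs, and none of the 35 was. In all, 16 of the 35 genes were higher in old mice in 6 of 6 pairs, a pattern held by 6.09% of all genes. Beside Pdk4, Acaa2, Angptl4 and Ppara these were Cpt1a, Crot, Acadl, Hadh, Hadha, Etfdh, Abcd3, Ehhadh, Acaa1b, Eci2, Decr2 and Pex11a. Cpt1a had age differences of 0.15 to 0.30 over the 6 pairs, and Ehhadh of 0.09 to 0.34. Some were near 0 in a pair, such as Hadha, with a lowest difference of 0.0053. The pairs of 1 diet share their mice across segments and are not independent. Among the genes of the other lists, Pparg was higher in old mice in the distal segment by 0.52 and Fabp1 by 0.51, and in the mean of segments Pparg by 0.39, Slc27a2 by 0.30 and the kinase Pdk1 by 0.26, each called. Most of these calls were lost under other settings: the distal ones of Pparg and Fabp1 held in 6 and 4 of 20 alternatives, and those of Slc27a2 and Pdk1 in the mean in 3 of 9 each, while that of Pparg in the mean held in 7 of 9.

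**Figure D3:**
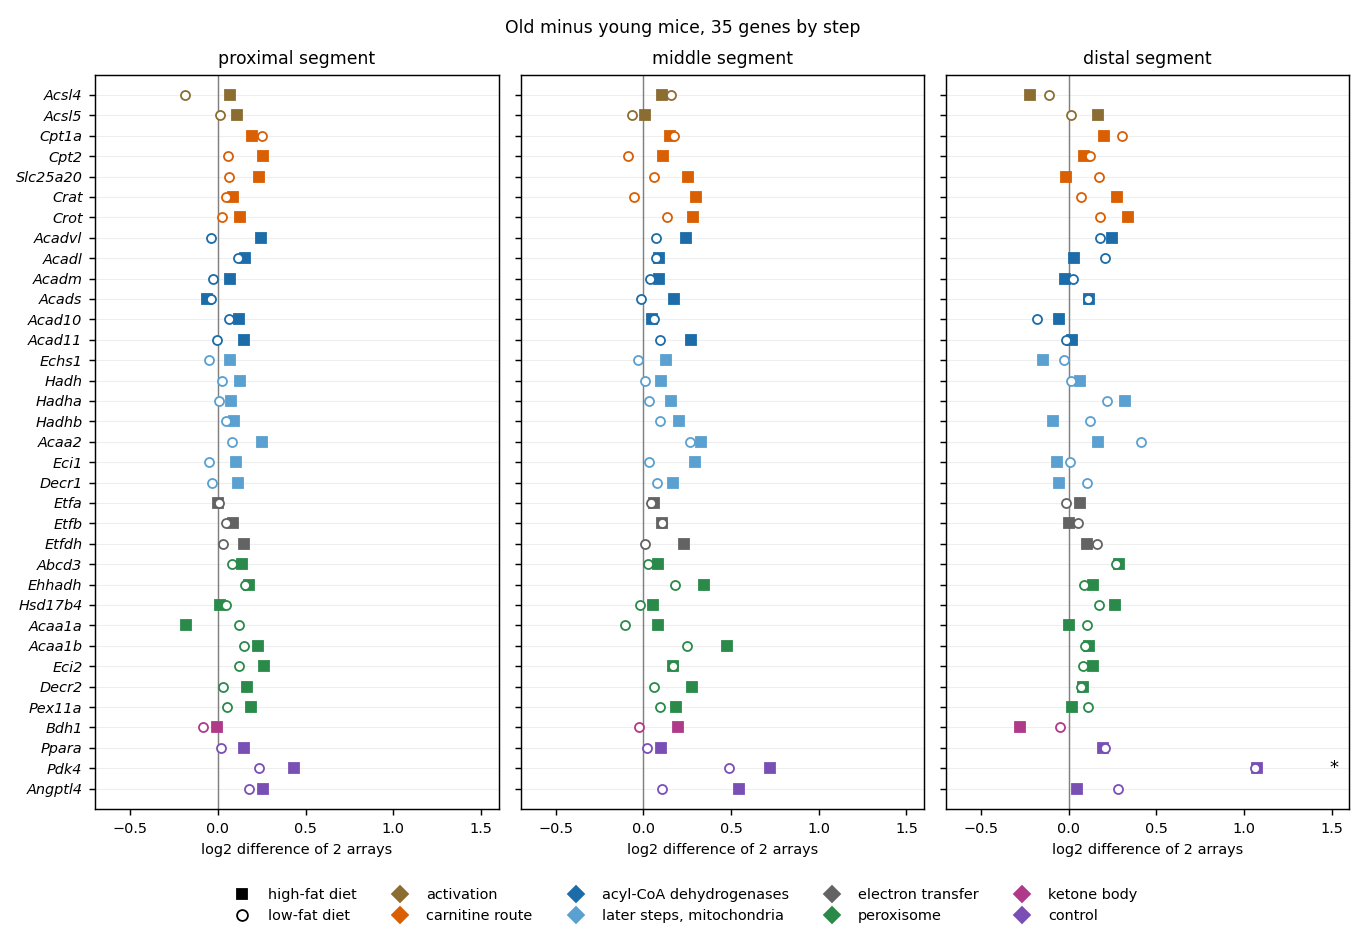
Old minus young log2 difference of 2 arrays (horizontal axis) for each of the 35 genes, coloured by step, in the proximal, middle and distal segments, with the high-fat diet as filled squares and the low-fat diet as open circles. The asterisk marks Pdk4 in the distal segment, at 1.07 and 1.06, the only call.

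Markers of muscle, connective tissue and other cells moved with age. In the distal segment 12 of 12 smooth muscle markers were lower in old mice on the high-fat diet and 11 of 12 on the low-fat diet, with mean log2 levels of 7.10 to 7.57 in old and 8.01 to 8.30 in young mice. The 10 fibroblast markers averaged 6.67 to 7.38 in old and 7.44 to 7.80 in young mice there, and the 12 enterocyte markers 12.09 to 12.17 in old and 12.06 to 12.08 in young mice. Of 7 adipocyte markers measured, the mean level was 5.91 to 6.28 in old and 6.45 to 6.52 in young mice in the distal segment. Paneth cell markers were lower in old mice in 6 of 6 cases on each diet in that segment, with means of 10.23 to 10.92 in old and 10.92 to 11.12 in young mice, and on the high-fat diet 6 of 6 B cell and 7 of 8 T cell markers were lower. In the middle segment 12 of 12 smooth muscle markers were lower in old mice on each diet, with means of 6.74 to 6.75 in old and 7.2 to 7.27 in young mice, and in the proximal segment 7 of 7 endothelial markers were lower on each diet. In the middle segment 7 (low-fat diet) and 8 (high-fat diet) of 8 distal markers were lower in old mice. Their mean log2 levels there were 9.34 to 9.74 in old and 9.90 to 10.29 in young mice. In the proximal segment 8 and 6 of the 8 were lower, in the same order of diets, and distally 6 and 5. Of 6 proximal markers, 4 were lower in old mice in the middle segment and 4 higher in the proximal one, on each diet. Array values have no 0, and the part of these cells and of the position of the scrapings in the age results was not tested.

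Along the intestine most genes of the set were lower distally. Of the 35 genes, 8 were lower in the middle than in the proximal segment, against 10.9% of all genes. None was higher, where 1672 of all 11925 genes were. In the distal against the middle segment 24 were lower and 1 was higher, against 20.0% and 14.6% of all genes, and in the distal against the proximal segment 25 were lower and 3 were higher, against 27.5% and 27.3%. The median log2 differences of the 35 genes were -0.10, -0.29 and -0.39 in the same order. In 28 of the 35 genes the distal array was lower than the proximal array in 4 of 4 pools, a pattern of 30.6% of all genes.

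Pdk4 had the steepest gradient, with a distal minus proximal difference of -1.66 (standard error 0.15, adjusted p = 7.15e-06 from limma). Ehhadh followed with -1.45 (standard error 0.06, adjusted p = 2.45e-08 from limma). Its intensity in the distal segment was 759.7 and 713 on the high-fat and low-fat diets in old mice and 689 and 670.2 in young mice, against 2028 and 2076 in old mice and 1794 and 1869 in young mice for the proximal arrays. The distal arrays of Ehhadh did not overlap the middle ones, at 1131 to 1436, which lay below the proximal ones.

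Acad11, Acaa1b, Crat and Acaa2 fell by 1.10, 1.08, 1.03 and 1.01 in the distal against the proximal segment, each called in limma. Bdh1 fell by 0.60 (adjusted p = 0.000104 from limma), with 553 to 687 in the distal and 914 to 1057 in the proximal segment. The list of 5 other ketone body genes had 4 lower distally and none higher, with a median of -0.72, and the 14 other peroxisomal genes had 11 lower and 1 higher, with a median of -0.43. The 7 genes around malonyl-CoA had 5 higher and 1 lower, with a median of 0.65.

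The 3 genes called higher distally were Slc25a20 and Cpt1a of the carnitine route and Acads of the acyl-CoA dehydrogenases. Slc25a20 was higher distally than proximally, with a log2 difference of 0.44 (standard error 0.10, adjusted p = 0.00445 from limma), as was Cpt1a with 0.37 (standard error 0.08, adjusted p = 0.0036 from limma). Cpt1a measured 1286 and 1256 on the high-fat and low-fat diets in distal arrays of old mice and 1119 and 1019 in those of young mice, against 1111 and 849.6 (old) and 973 and 713 (young) in proximal arrays. Both genes and Acads, with 0.17 (adjusted p = 0.0269 from limma), were higher distally in 4 of 4 pools, the only 3 of the 35, against 30.7% of all genes. Crat and Crot, of the same group of 5 as Cpt1a, fell by 1.03 and 0.75, while Cpt2 at -0.08 had no call.

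Of the other steps, the 7 later mitochondrial genes had 5 lower distally, the 6 acyl-CoA dehydrogenases 5 lower and 1 higher, electron transfer 2 of 3 lower, and the 8 peroxisomal genes 6 lower. Medians of the distal minus proximal difference were -0.50, -0.34, -0.40 and -0.32 in that order, and -0.08 for the carnitine route. Hadha at -0.01, Abcd3 at 0.09, Hsd17b4 at -0.12 and Ppara at -0.06 had no call. The acinar genes of the proximal arrays given above moved with this contrast. So did Paneth cell markers, with mean log2 levels of 10.23 to 11.12 in the distal and 8.56 to 9.11 in the proximal segment, crypt markers with 7.98 to 8.36 distally and 7.18 to 7.36 proximally, and smooth muscle markers with 7.10 to 8.30 distally and 6.36 to 6.93 proximally. T cell markers averaged 6.96 to 7.51 in the distal and 7.94 to 8.05 in the proximal segment, B cell markers were higher and myeloid markers lower distally without overlap, and enterocyte markers averaged 12.06 to 12.17 distally and 11.99 to 12.06 proximally. The part of these cells was not tested.

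**Figure D4:**
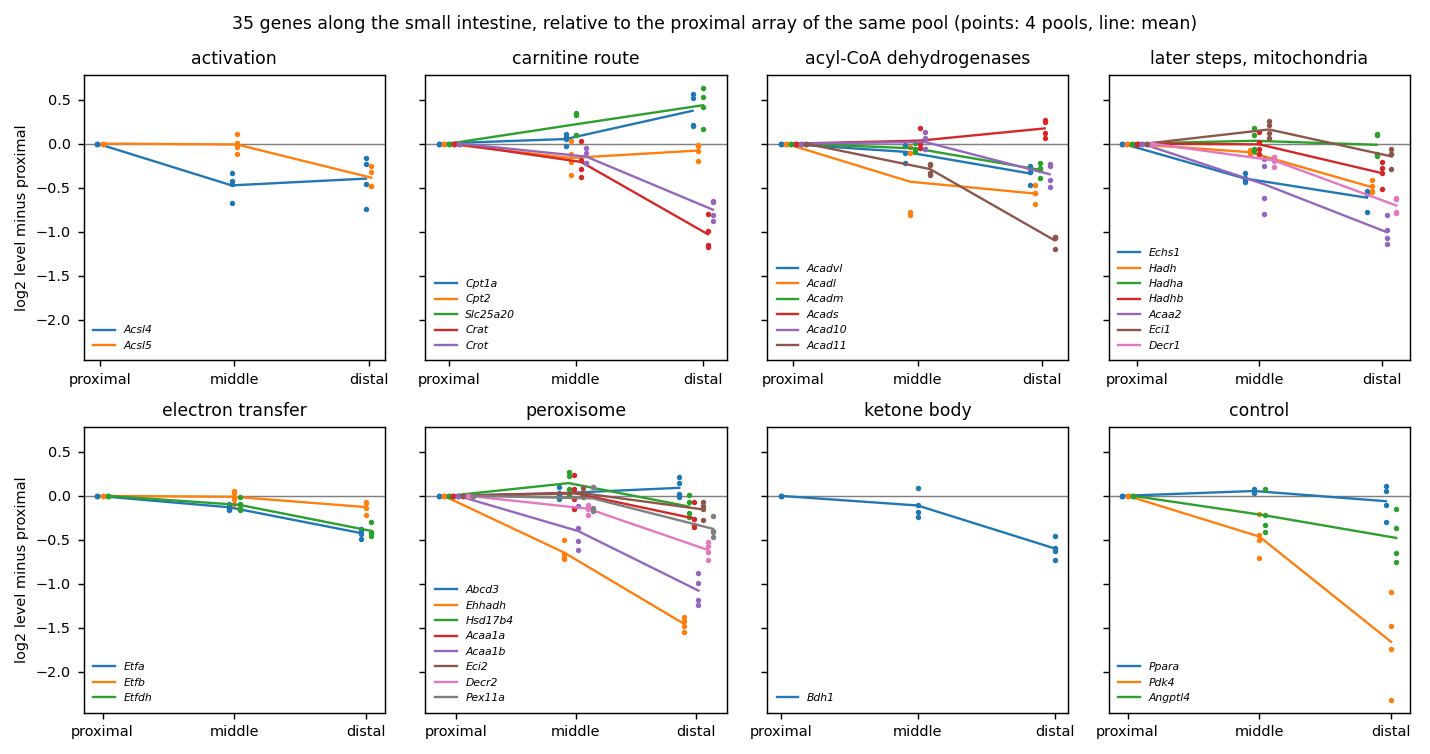
Log2 level of each of the 35 genes minus the proximal array of the same pool (vertical axis) in the proximal, middle and distal segments, in a panel per step, with points for the 4 pools and lines for their mean. Pdk4 and Ehhadh ended lowest, at -1.66 and -1.45 on average, and Slc25a20 and Cpt1a ended above 0, at 0.44 and 0.37.

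The counts rest on few arrays. With an intensity trend and robust variances in limma, 9, 16 and 9 of the 35 genes were called with diet from proximal to distal, where 1.97%, 7.2% and 3.65% of all genes were, and 0, 1 and 7 with age, where 0.646%, 0.252% and 3.78% of all genes were. The proximal call of Acadl was lost without any 1 proximal or middle array, the distal call of Acadl without any 1 of the 12 arrays, and that of Acaa1b without any 1 distal array. Leaving out 1 array of the middle segment left 1 or 2 of the 9 diet calls there, leaving the middle segment out of the mean left 2 of 13, and leaving out the distal array of old or of young mice on the high-fat diet ended the age call of Pdk4.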

How the data were processed

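Pooled RNA of mucosal scrapings (3 segments, 2 ages, 2 diets, 1 array each) was hybridised to 12 Affymetrix Mouse Gene 1.0 ST arrays. Per the labels and the study's methods, the authors summarised and normalised the arrays with RMA, and the deposited values are log2 intensities. The methods name redefined probe sets, while the deposited table carries 35556 numbered probe sets, which were named through the platform annotation: 21789 had 1 gene symbol, 1621 several and 12146 none. The brightest probe set by mean stood for a gene, genes over an intensity of 50 on at least 1 array were kept, and 23 acinar genes were left out, which gave 11925 genes. Intensities in the text are 2 to the power of the deposited log2 value, and levels of different genes cannot be compared.

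Tests used limma 3.58.1 in R 4.3.3 with eBayes and Benjamini-Hochberg adjustment over all genes. A fit with 9 coefficients (segment, age and diet within segment, 3 residual degrees of freedom) gave the diet, age and diet-difference contrasts. A fit of segment and pool (6 residual degrees of freedom) gave the segment contrasts, and the means of the 3 segments per pool (1 residual degree of freedom) gave the overall diet and age contrasts. Diet by age within a segment had no residual degrees of freedom and was not tested. For the diet and age contrasts, the residual is how far the diet difference departs between old and young mice. For the segment contrasts it is how far the segment differences depart between pools. With no separate animals on the arrays, p-values measure these departures and not the spread between animals, and the number of arrays limits the precision. The study itself called genes over 2-fold between 2 arrays, which was counted as well. On simulated data of 11925 genes for the diet contrast of the middle segment, 49.3% of genes changed by 0.5 and 94.0% of genes changed by 1.0 on the log2 scale were found. In this simulation 6 unchanged genes were called. Its noise was independent between arrays and its change was the same in both ages, which the real arrays need not follow. The members and lists were chosen with earlier results of these data known. Named genes were the members past a test or over 2-fold, the lowest and highest of the rest of a step, and at most 3 called genes of another list. Promoter windows came from RefSeq (GRCm38.p6). Alternatives were no intensity filter, the mean of probe sets, acinar genes kept, equal medians, quantile normalization, an intensity trend with robust variances, the pool as a random block, each segment alone, no pool term, and each array or segment left out.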

Additional observations from a re-analysis of the deposited data

Results flagged for a closer look

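No gene of the set passed the test of a difference in the diet effect between segments. For some genes both pairs of arrays in 1 segment moved 1 way and both pairs of another segment moved the opposite way. The differences with age were not tested, and many of both kinds are small. Acsl4, an acyl-CoA synthetase for arachidonic acid, had a mean diet difference (high-fat minus low-fat, log2) of -0.19 in the distal segment, 0.28 in the middle and 0.21 in the proximal, so that the distal minus middle value was -0.48 and the distal minus proximal value -0.41. Its age difference was -0.17 in the distal and 0.13 in the middle segment, a gap of -0.30. Ppara had a diet difference of 0.09 in the distal segment, against -0.19 in both others, with gaps of 0.28 to the middle and 0.29 to the proximal segment.

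Gaps under 0.25 in size were found for 5 more genes. Acad10 had a diet gap of 0.16 (middle minus proximal) and age gaps of -0.17 (distal minus middle) and -0.21 (distal minus proximal). The distal minus proximal gap with diet was -0.10 for Acadm, 0.11 for Ehhadh and -0.13 for Decr2, and with age it was 0.16 for Acads. Each group here is 1 array, so samples far from the rest of their group could not be looked for.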

How the results depend on the processing

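Counts are of the 35 genes called. With an intensity trend and robust variances the diet counts were 9 (proximal), 16 (middle), 9 (distal) and 21 (mean of segments), the age counts 1 (middle), 7 (distal) and 8 (mean of segments), and the diet difference between segments had 1 (middle minus proximal) and 4 (distal minus middle) called. Without the intensity filter the distal diet count was 1, that of the mean of segments 5, and the age count of the mean 1. The 4 arrays of a segment alone gave 0 with diet in the proximal and 1 in the distal segment. With array medians set equal, 13 genes differed between middle and proximal segments, and without a pool term 5. The age count of the mean was 1 with equal medians, with quantile normalization, and with any 1 segment left out, and the diet count of the mean was 2 without the middle segment. Leaving out each array in turn gave 0 to 1 (proximal), 1 to 9 (middle) and 0 to 1 (distal) with diet, 0 to 1 with age in the distal segment, and 5 to 13 for the middle against the proximal segment. The proximal diet count was 0 without any 1 proximal or middle array, and the distal one 0 without any 1 distal array and 1 without any 1 other array. The count of 5 came without the proximal array of young mice or the middle array of old mice on the low-fat diet, and that of 13 without the distal array of old mice on the high-fat diet. The causes were not tested, other than that fewer arrays leave fewer degrees of freedom. No gene of the set changed direction in a called contrast. Hsd17b11, of the other PPAR targets, was 0.0475 higher in the distal than in the proximal segment after quantile normalization, against the direction without it. The segment contrasts were paired by pool, which was a term of their fit. For diet and age no paired analysis was possible because each pool had 1 diet and 1 age, and the labels number no replicates within a group.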
